A study of Mus musculus with 32 samples.

Results

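The comparison covered the second 6 h of the dark phase in interscapular brown adipose tissue (iBAT) of the mouse, a depot that lies over the upper back and burns fat for warmth. It set ZT0 against ZT18, where Zeitgeber time (ZT) counts hours from lights on, so that ZT18 is the middle of the dark period and ZT0 its end. The members were the 8 libraries labelled ZT0 or ZT18, of 32 in the series, with 4 mice at each time point and 1 library per mouse. All mice were male C57BL/6J animals, 10 weeks old, kept on chow in a cycle of 12 h light and 12 h dark at room temperature, which is a mild cold for mice. They were not fasted, carried no transgene and received no treatment, so both groups differed by design only in the time of killing. The 4 mice of ZT21, the time point between, are given beside the results to place each value along the night. The study followed 8 time points at 3 h steps to describe the daily rhythm of gene expression in this tissue.

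Mice are active and feed mainly in the dark, and the second part of the night leads to the rest phase. In every cell a circadian clock runs as a feedback loop, in which BMAL1 (encoded by Arntl) pairs with CLOCK or NPAS2 to switch on the Per, Cry and Nr1d genes, whose products then repress that activity. Brown adipocytes take up fatty acids released by lipoprotein lipase and glucose, store lipid in small droplets and burn it in mitochondria that UCP1 uncouples, under noradrenaline acting through the beta-3 adrenergic receptor. The mitochondria carry a small genome of their own for 13 subunits of the respiratory chain and ATP synthase. Because whole tissue was sequenced, fewer cells of one type and less RNA per cell cannot be told apart in any result here.

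Values were raw read counts per gene, with library totals of 16680401 to 18254659 in the 8 libraries. They were scaled by TMM factors and are given as CPM, a gene's counts relative to the scaled library total, not divided by gene length, so levels are compared between mice and not between genes. A gene was called where edgeR's quasi-likelihood test gave a Benjamini-Hochberg adjusted p under 0.05. Of 15505 genes tested, 351 (2.26%) differed between ZT0 and ZT18, of which 186 (1.2%) were higher at ZT0 and 165 (1.06%) lower. Changes were mostly small. The median fold of the called genes was 1.44, 194 of them (55.3%) changed by less than 1.5-fold, and 71 passed 2-fold, 43 of these higher at ZT0 and 28 lower. The mice of both time points did not overlap for 316 of the 351 called genes and for 8.61% of all genes tested. ZT21 differed from ZT18 in 320 genes (2.06%), of which 192 were higher at ZT21, and ZT0 differed from ZT21 in 1197 genes (7.72%), of which 543 were higher at ZT0. These 3 comparisons share libraries, so only their separate values are given side by side.

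Some limits hold for every result that follows. The ZT0 libraries ran on lane 2 and the ZT18 and ZT21 libraries on lane 4. Lane and time therefore cannot be told apart between ZT0 and ZT18 or between ZT0 and ZT21, whereas ZT21 against ZT18 was a comparison within 1 lane. Skeletal muscle transcripts differed strongly between mice of the same time point. Summed CPM of 14 muscle markers were 62.5, 75.4, 2539 and 6328 at ZT18 and 59.8, 395, 6441 and 3603 at ZT0, in the order of the replicate numbers. With the muscle level as a covariate, an alternative added after the data were seen, the count of called genes was 351 again, 322 of them shared. The count depended on single libraries, being 144 without ZT0 replicate 1, 148 without ZT18 replicate 2, 146 without ZT18 replicate 3 and 223 without ZT18 replicate 4, and 88 genes were called in all 8 fits that left out 1 library, 44 in each direction. A fit of the 8 libraries alone called 61 genes, of which 57 were among the 351. Calls said below to hold in all 8 fits refer to the fits that left out 1 library and kept the other time points. Scaling by library size alone moved the split to 81 higher and 259 lower, or 23.8% higher against 53% by TMM, with the median log2 fold change of all genes at -0.06 rather than 0.0035. None of the 351 genes changed sign in these fits, but the fits reuse the libraries that chose the genes, so this is no independent check.

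The 3 activators of the clock loop were all higher at ZT0, and 4 of its 10 repressors were lower. Called genes were ranked by fold where they had at least 1 CPM on average, no overlap between mice and a symbol that is not a gene model. Among these, Npas2 (chr1:39193731-39363236, GRCm38, GENCODE M21), the partner that can replace CLOCK, showed the largest fold. It measured 0.386, 0.331, 0.395 and 0.491 CPM in the ZT18 mice of replicate numbers 1 to 4, 1.98, 1.38, 2.45 and 2.13 at ZT21 and 6.55, 5.51, 3.58 and 4.17 at ZT0. The lowest ZT0 mouse stood above the highest ZT21 mouse, which in turn stood above every ZT18 mouse. The difference was 12.1-fold (log2 3.60 ± 0.40, SE; adjusted p = 5.78e-06, edgeR), with adjusted p = 0.00491 for ZT21 against ZT18 and 0.0167 for ZT0 against ZT21. Across the 8 time points the mean ran from 0.0746 CPM at ZT12 to 4.95 at ZT0.

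Arntl, which encodes the core activator BMAL1, measured 17, 15.9, 12 and 16.3 CPM at ZT18 and 30.3, 35.9, 32.1 and 39.4 at ZT0, without overlap. It was 2.25-fold higher at ZT0 (log2 1.17 ± 0.24, SE; edgeR adjusted p = 0.00844), with 20 ± 5.9 (SD, n = 4) between them at ZT21. Clock, its partner, moved less. It measured 62.8, 68.1, 58.5 and 63 CPM at ZT18 against 103, 78.4, 90.8 and 88.2 at ZT0, which gave 1.43-fold (edgeR adjusted p = 0.00464), and had reached 84.1 ± 8.78 CPM by ZT21 (adjusted p = 0.0214 against ZT18). These 3 calls held in each of the 8 fits that left out 1 library.

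Among the repressors, Per3 fell most, from 79.7, 101, 111 and 85.2 CPM at ZT18 to 31.8, 30.2, 29.2 and 37.4 at ZT0. Every ZT0 mouse lay below every ZT21 mouse (55.9, 61.2, 45.6 and 44 CPM), and these lay below every ZT18 mouse. The fold was 2.93 (log2 -1.55 ± 0.19, SE; edgeR adjusted p = 3.54e-05), with adjusted p = 0.0157 from ZT18 to ZT21 and 0.0241 from ZT21 to ZT0. Per1, a period gene that also answers acute signals, measured 35.4, 31.5, 70 and 44.7 CPM at ZT18 and 10.1, 15.4, 19.3 and 19.8 at ZT0 and was 2.81-fold lower (edgeR adjusted p = 0.0104). Its call was lost without 2 libraries, at adjusted p = 0.0506 without ZT0 replicate 1 and 0.0586 without ZT18 replicate 3. Per2 differed from both in its time course. It fell 2.31-fold from ZT18 (66, 55.5, 39.6 and 47.6 CPM) to ZT0 (16.6, 22.8, 37.2 and 14; adjusted p = 0.00476), but its ZT21 mice were already at 19.4, 21.9, 20.1 and 18.8 (adjusted p = 0.00352 against ZT18, and 0.726 between ZT0 and ZT21).

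The nuclear receptors Nr1d1 and Nr1d2 (REV-ERB alpha and beta), which repress Arntl and Npas2, moved in opposite directions. Nr1d2 measured 31.2, 56.5, 45.9 and 38.9 CPM at ZT18, 31.1, 28.4, 18.7 and 19.4 at ZT21 and 17.7, 20, 16.5 and 26.4 at ZT0, a 2.14-fold fall (edgeR adjusted p = 0.00153) that held in all 8 fits. Nr1d1 measured 13.5, 28.8, 20.7 and 15.9 CPM at ZT18 and 18.6, 29.9, 44 and 54.4 at ZT0, so that its mice overlapped. It was 1.86-fold higher at ZT0 (adjusted p = 0.0298), but the call was lost at adjusted p = 0.0715 to 0.103 in 5 of the 8 fits that left out 1 library, held only without ZT0 replicate 1, ZT0 replicate 2 and ZT18 replicate 2. The other 5 repressors, Cry1, Cry2, Ciart, Bhlhe40 and Bhlhe41, were not called, at log2 fold changes of -0.39 for Cry2, -0.25 for Cry1, -0.12 for Ciart, 0.07 for Bhlhe40 and 0.05 for Bhlhe41. Bhlhe40, a repressor induced by many stimuli, varied widely between mice, with 123 ± 96.4 CPM at ZT18 and 129 ± 101 at ZT0 (SD, n = 4).

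Of the 6 clock output factors 2 were lower at ZT0, both PAR bZIP transcription factors that carry clock time to other genes. Dbp fell 2.42-fold, from 9.7, 11.5, 12.7 and 9.17 CPM to 5.39, 4.86, 3.93 and 3.67 (log2 -1.27 ± 0.25, SE; edgeR adjusted p = 0.00764), at the foot of a daily range whose highest mean was 171 CPM at ZT9. Tef measured 168, 193, 188 and 164 CPM at ZT18 and 165, 90.7, 119 and 75 at ZT0, so the mouse of replicate 1 overlapped the ZT18 group. It fell 1.59-fold (adjusted p = 0.0309), a call lost at adjusted p = 0.0519 to 0.104 in 5 of the 8 fits that left out 1 library, held only without ZT0 replicate 1, ZT18 replicate 1 and ZT18 replicate 4. Hlf, the third PAR bZIP factor, differed by log2 -0.42 (adjusted p = 0.162), and the nuclear receptor Rora and the D-box repressor Nfil3 gave adjusted p = 0.0996 for Rora and 0.905 for Nfil3.

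**Figure D1:**
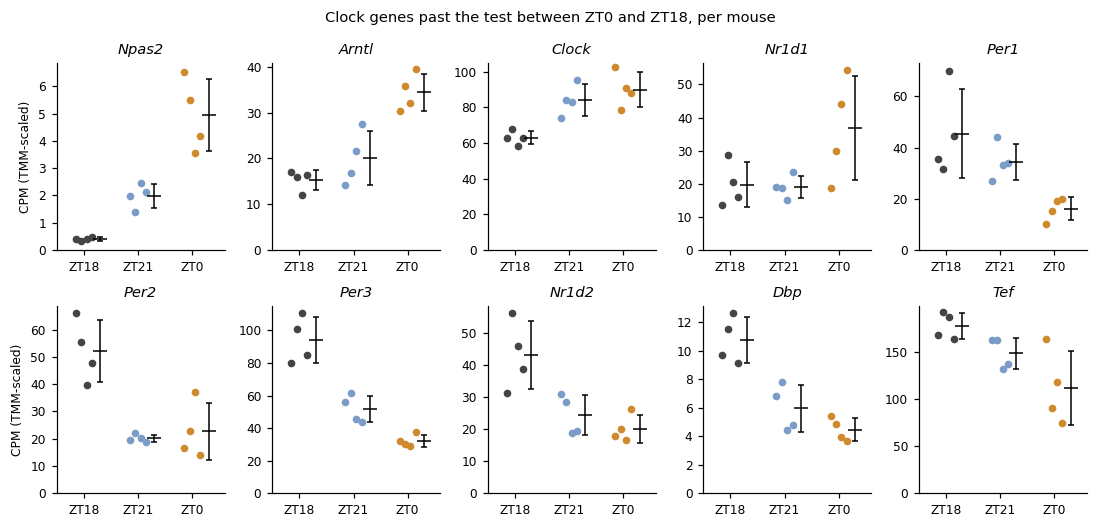
CPM after TMM scaling (y axis, from 0) of the 10 clock genes called between ZT0 and ZT18, with 1 point per mouse at ZT18, ZT21 and ZT0 (x axis) and bars for the mean ± SD of 4 mice. Npas2, Arntl and Clock are higher at ZT0, and Per2 has reached its ZT0 level by ZT21, while Nr1d1 and Tef overlap between ZT18 and ZT0.

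The 4 promoter windows below are shown because they hold elements through which clock factors act. Each runs from 250 bases before to 50 bases after a RefSeq start (GRCm38.p6), 5′ to 3′ on the gene's strand, and capitals mark the element. Per1 and Tef hold CACGTG, the E-box bound by BMAL1 with CLOCK or NPAS2, which is its own reverse complement. Per3 holds the D-box TTATGTAA, bound by PAR bZIP factors. The second of the Arntl windows holds TAGGTCA, the core of the element shared by ROR activators and REV-ERB repressors. Both strands were searched.
Per1 (chr11:69098699-69098998, plus strand): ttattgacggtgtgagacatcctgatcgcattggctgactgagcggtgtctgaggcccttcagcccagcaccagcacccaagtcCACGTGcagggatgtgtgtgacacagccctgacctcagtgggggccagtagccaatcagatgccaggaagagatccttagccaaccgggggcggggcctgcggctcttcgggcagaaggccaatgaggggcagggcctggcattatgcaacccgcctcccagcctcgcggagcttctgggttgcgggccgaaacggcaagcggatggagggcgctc
Tef (chr15:81802423-81802722, plus strand): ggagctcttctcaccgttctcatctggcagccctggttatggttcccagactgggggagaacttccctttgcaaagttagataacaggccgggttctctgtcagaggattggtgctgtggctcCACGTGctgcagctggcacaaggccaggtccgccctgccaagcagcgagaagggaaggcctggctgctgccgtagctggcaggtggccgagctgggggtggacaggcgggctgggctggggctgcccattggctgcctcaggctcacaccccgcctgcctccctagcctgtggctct
Per3 (chr4:151044616-151044915, minus strand): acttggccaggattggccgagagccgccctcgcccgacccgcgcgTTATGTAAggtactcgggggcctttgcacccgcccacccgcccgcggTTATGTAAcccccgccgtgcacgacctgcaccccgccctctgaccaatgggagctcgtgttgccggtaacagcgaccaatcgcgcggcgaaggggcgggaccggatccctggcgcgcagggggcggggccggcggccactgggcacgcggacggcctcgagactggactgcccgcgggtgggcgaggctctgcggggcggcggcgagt
Arntl (chr7:113207261-113207560, plus strand): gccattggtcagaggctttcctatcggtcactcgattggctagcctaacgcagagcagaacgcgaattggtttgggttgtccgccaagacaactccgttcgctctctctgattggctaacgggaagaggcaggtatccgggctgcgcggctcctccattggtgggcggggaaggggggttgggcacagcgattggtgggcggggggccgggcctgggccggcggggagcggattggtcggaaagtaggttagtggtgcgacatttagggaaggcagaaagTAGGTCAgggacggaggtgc

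Among the 13942 windows of the 10910 tested genes found in the table, 9.57% held CACGTG, 0.552% TTATGTAA and 1.84% TAGGTCA. Windows were found for 8 of the 10 clock repressors, not for Per2 and Bhlhe40. Of the 8, Per1, Cry1, Ciart and Bhlhe41 held CACGTG, and the last 3 of these were not called. Of the called clock genes, Npas2, Clock, Nr1d1, Nr1d2 and Dbp held none of the 3 elements in these windows. A match describes letters in a window and not a bound site.

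Mitochondrially encoded transcripts took up less of the library at ZT18 than at ZT0. Their share of all counts was 23.3% ± 1.79 at ZT0 (21.5 to 25.3%), 22.5% ± 1.22 at ZT21 and 19.6% ± 1.18 at ZT18 (18.5 to 20.7%; SD, n = 4 each), a difference of 3.75 percentage points without overlap between ZT0 and ZT18 (two-sided exact permutation test p = 0.0286, the smallest that 4 against 4 mice allow). The 13 protein genes did not move together. At ZT0, 4 were higher, 5 were lower and 4 were not called, with a median log2 fold change of 0.21 beside 0.0035 over all genes. The 5 lower genes were those that share nearly all of their sequence with nuclear transcripts, described below. Which genome their reads came from was not measured.

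The 4 higher genes were abundant. mt-Cytb, the cytochrome b subunit of complex III, measured 42850, 41870, 46890 and 45640 CPM at ZT18 and 65840, 52980, 53470 and 55010 at ZT0, a 1.28-fold difference (edgeR adjusted p = 0.0199). For the complex I subunits mt-Nd1, mt-Nd2 and mt-Nd4 the folds were 1.33 for mt-Nd1 (from 17630 ± 1651 to 23460 ± 2435 CPM; adjusted p = 0.00614), 1.34 for mt-Nd2 (adjusted p = 0.0144) and 1.33 for mt-Nd4 (adjusted p = 0.00746). Of these, mt-Nd1 and mt-Nd2 also differed between ZT18 and ZT21 within the lane (adjusted p = 0.00783 for mt-Nd1 and 0.0223 for mt-Nd2). The calls of mt-Nd1 and mt-Nd4 held in all 8 fits. That of mt-Cytb was lost at adjusted p = 0.106 without ZT0 replicate 1, 0.0528 without ZT18 replicate 1 and 0.0721 without ZT18 replicate 2, and that of mt-Nd2 at adjusted p = 0.0814 without ZT0 replicate 1 and 0.0537 without ZT18 replicate 2. With library size scaling or the muscle covariate mt-Cytb was not past the threshold, at adjusted p = 0.0538 with the former and 0.0539 with the latter.

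The 5 lower genes stood at a few to about 100 CPM. mt-Atp6, a subunit of ATP synthase, measured 108, 98.9, 105 and 83 CPM at ZT18, 73.5, 82.8, 60.2 and 36.3 at ZT21 and 59.3, 45, 36.6 and 36.3 at ZT0, 2.23-fold lower at ZT0 (log2 -1.15 ± 0.18, SE; edgeR adjusted p = 0.000475). mt-Co2 and mt-Co3, subunits of cytochrome c oxidase, fell by 1.96-fold and 1.76-fold (adjusted p = 0.0036 for mt-Co2 and 0.0194 for mt-Co3). mt-Nd4l and mt-Nd3 of complex I fell by 2.02-fold and 1.58-fold (adjusted p = 0.0219 for mt-Nd4l and 0.0495 for mt-Nd3). The calls of mt-Atp6 and mt-Co2 held in all 8 fits. Those of the others were lost at adjusted p = 0.0516 to 0.0668 in 4 of the 8 fits that left out 1 library, held only without ZT0 replicate 1, ZT0 replicate 4, ZT18 replicate 1 and ZT18 replicate 4 for mt-Co3, at adjusted p = 0.0586 to 0.0878 in 4 of the 8 fits that left out 1 library, held only without ZT0 replicate 1, ZT0 replicate 3, ZT18 replicate 1 and ZT18 replicate 4 for mt-Nd4l, and at adjusted p = 0.0567 to 0.156 in 8 of the 8 fits that left out 1 library for mt-Nd3. With the replicate number as a block mt-Nd3 was at adjusted p = 0.0595.

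These 5 genes have close copies in the nuclear genome. Of their 100-base stretches, the length of a read, 97.6% (mt-Nd3) to 99.9% (mt-Co3) also occurred in an annotated nuclear transcript; how read pairs from them were placed was not measured. In the genes that were higher the share was 0% for mt-Cytb and mt-Nd1, 3.19% for mt-Nd2 and 60.8% for mt-Nd4. The 10 nuclear transcripts that share such stretches with any of the 13 protein genes all had negative log2 fold changes, and 5 of them were called. Gm10925, the copy of mt-Atp6 at chr1:24613974-24614651 (GRCm38), went from 132, 129.5, 148 and 115 to 101, 64.3, 62.1 and 60.3 CPM (log2 -0.87; adjusted p = 0.00888). The neighbouring copies Gm28437, Gm28661 and Gm29216 on chromosome 1 gave log2 -0.98 for Gm28437, -0.77 for Gm28661 and -0.75 for Gm29216, all called, as was Gm13340 on chromosome 2 (log2 -0.93; adjusted p = 0.0033), which shares stretches with mt-Co1. The copies of mt-Nd3 (Gm28438, log2 -0.23), mt-Nd4l (Gm10222, -0.71) and mt-Nd4 (Gm28439, -0.15) were not called. The copies were named after their values were seen, and the calls of Gm28661 and Gm29216 were lost at adjusted p = 0.0502 to 0.069 in 4 of the 8 fits that left out 1 library, held only without ZT0 replicate 1, ZT18 replicate 1, ZT18 replicate 2 and ZT18 replicate 4 for Gm28661 and at adjusted p = 0.0543 without ZT0 replicate 2, 0.0624 without ZT0 replicate 3 and 0.0571 without ZT18 replicate 3 for Gm29216. How far shared sequence set the direction of the 5 genes was not tested.

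Of the remaining mitochondrial genes few were called. mt-Co1 (log2 0.26), mt-Nd5 (0.21), mt-Nd6 (0.41) and mt-Atp8 (0.12) were not called, at adjusted p = 0.168 for mt-Co1 to 0.922 for mt-Atp8. Of 9 transfer RNA genes tested, 2 were higher at ZT0 and none lower, and all 9 had positive log2 fold changes. mt-Tp measured 1.27, 1.1, 1.69 and 0.437 CPM at ZT18 and 10.5, 5.81, 3.69 and 4.17 at ZT0 (5.33-fold; edgeR adjusted p = 0.00456), and mt-Te 0.937, 1.05, 0.564 and 0.928 against 6.16, 2.9, 3.99 and 2.17 (4.34-fold; adjusted p = 0.00509). Both calls held in all 8 fits. Both genes are shorter than a read, at 67 bases (mt-Tp) and 69 bases (mt-Te), and lie on the minus strand, opposite that of mt-Cytb. The sources used here do not say whether reads were counted by strand, so their reads cannot be told apart from those of the other strand. The ribosomal RNA genes mt-Rnr1 and mt-Rnr2 gave log2 fold changes of 0.02 and 0.04, both not called.

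**Figure D2:**
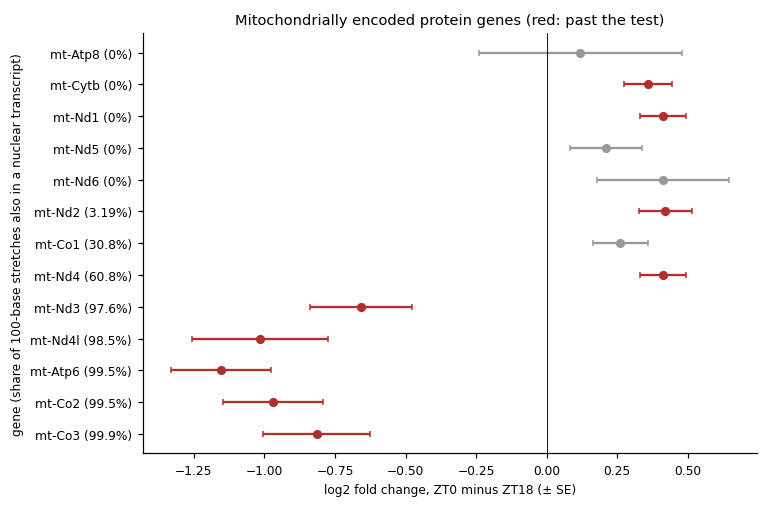
Log2 fold change ± SE, ZT0 minus ZT18 (x axis), of the 13 mitochondrially encoded protein genes (y axis), ordered by the share of their 100-base stretches also found in an annotated nuclear transcript, with called genes in red. All 5 genes with a share of 97.6% or more are lower at ZT0, and the 8 genes with a share of 60.8% or less have positive values.

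Heat-shock proteins are cytosolic and mitochondrial chaperones that refold and guard other proteins. Of 19 genes 3 were higher at ZT0, none was lower and 17 had positive values, with a median log2 fold change of 0.47 beside 0.0035 over all genes, and 16 had an unadjusted p under 0.05, as did 2382 of the 15505 genes tested. With the replicate number as a block 1 of the 19, Fkbp4, was called. Between ZT18 and ZT21, in the same lane, 6 of the 19 fell (Bag3, Chordc1, Dnaja1, Dnajb1, Dnajb4 and Hspa8) and none rose. Between ZT21 and ZT0, across lanes, 14 rose and none fell. Over all genes tested, 2.26% were called between ZT0 and ZT18, 2.06% between ZT18 and ZT21 and 7.72% between ZT21 and ZT0.

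Hspa1a, the main inducible HSP70, measured 3.2, 2.48, 2.25 and 4.31 CPM at ZT18, 1.02, 1.89, 0.835 and 0.92 at ZT21 and 6.67, 11.8, 15.1 and 4.67 at ZT0. The highest ZT18 mouse lay just under the lowest ZT0 mouse, and all ZT21 mice lay below both groups. It was 3.12-fold higher at ZT0 than at ZT18 (log2 1.64 ± 0.45, SE; edgeR adjusted p = 0.0495) and rose by log2 3.03 from ZT21 (adjusted p = 0.00037). The call against ZT18 was lost at adjusted p = 0.0604 to 0.16 in 7 of the 8 fits that left out 1 library, held only without ZT0 replicate 4, and with the replicate block it stood at adjusted p = 0.0636. Hspa1b, its near-identical neighbour on chromosome 17, between which reads cannot be divided with certainty, had 4.19 ± 1.54 CPM at ZT18 and 11.8 ± 6.98 at ZT0 (SD, n = 4; adjusted p = 0.0837).

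Hspb1, a small heat-shock protein that holds unfolded clients, measured 40.7, 29.4, 24.9 and 46.5 CPM at ZT18 and 67.1, 64.4, 83.4 and 53.6 at ZT0, 1.9-fold higher without overlap (edgeR adjusted p = 0.0374). Its call was lost at adjusted p = 0.0509 to 0.143 in 6 of the 8 fits that left out 1 library, held only without ZT0 replicate 4 and ZT18 replicate 4, and with the replicate block it stood at adjusted p = 0.0526. Fkbp4, a co-chaperone of HSP90 in steroid receptor complexes, went from 139.9, 126, 107 and 139 to 170.3, 171, 188 and 145 CPM, 1.32-fold higher (adjusted p = 0.0379), lost at adjusted p = 0.0675 to 0.151 in 5 of the 8 fits that left out 1 library, held only without ZT0 replicate 4, ZT18 replicate 1 and ZT18 replicate 4. The HSP90 genes themselves were not called. Hsp90aa1 had 115 ± 28.1 and 208 ± 54.3 CPM (SD, n = 4; adjusted p = 0.0852), and Hsp90ab1 had 1012 ± 188 and 1404 ± 138 (adjusted p = 0.0747).

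Dnaja1, an HSP40 that delivers clients to HSP70, shows the turn within the interval, with 104, 96.8, 72.5 and 91.9 CPM at ZT18, 43.7, 57.5, 41.8 and 49.5 at ZT21 and 122, 142, 165 and 90.8 at ZT0. All ZT21 mice lay below both other groups, which overlapped each other. Its adjusted p was 0.106 for ZT0 against ZT18, 0.00503 for ZT21 against ZT18 and 1.72e-05 for ZT0 against ZT21. Hspa8, the constitutive HSP70, had a log2 fold change of -0.14 between ZT0 and ZT18 (adjusted p = 0.782), with -1.04 from ZT18 to ZT21 and 0.90 from ZT21 to ZT0.

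The windows of the 3 called heat-shock genes are shown because each held GAANNTTC, the core of the heat-shock element that HSF1 binds, in capitals. The motif is its own reverse complement, N is any base, and 5.75% of the windows of tested genes held it. Windows were found for 15 of the 19 genes of the list, so no share over the list was drawn. The motif was also present in windows of 7 members that were not called, Hspa1b, Hsph1, Dnaja1, Hspd1, Hspe1, Bag3 and Chordc1.
Hspa1a (chr17:34972107-34972406, minus strand): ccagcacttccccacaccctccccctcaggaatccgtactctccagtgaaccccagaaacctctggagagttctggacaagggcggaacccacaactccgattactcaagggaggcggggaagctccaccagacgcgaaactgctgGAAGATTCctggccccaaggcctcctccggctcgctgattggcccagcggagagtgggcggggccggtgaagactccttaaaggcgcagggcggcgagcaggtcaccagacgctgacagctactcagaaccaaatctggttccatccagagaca
Hspb1 (chr5:135887669-135887968, plus strand): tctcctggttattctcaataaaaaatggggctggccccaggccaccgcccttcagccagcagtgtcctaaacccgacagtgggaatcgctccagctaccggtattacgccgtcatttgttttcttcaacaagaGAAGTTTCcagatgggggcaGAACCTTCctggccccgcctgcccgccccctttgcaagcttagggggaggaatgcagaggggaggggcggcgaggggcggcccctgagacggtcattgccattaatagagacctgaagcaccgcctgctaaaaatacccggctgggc
Fkbp4 (chr6:128438607-128438906, minus strand): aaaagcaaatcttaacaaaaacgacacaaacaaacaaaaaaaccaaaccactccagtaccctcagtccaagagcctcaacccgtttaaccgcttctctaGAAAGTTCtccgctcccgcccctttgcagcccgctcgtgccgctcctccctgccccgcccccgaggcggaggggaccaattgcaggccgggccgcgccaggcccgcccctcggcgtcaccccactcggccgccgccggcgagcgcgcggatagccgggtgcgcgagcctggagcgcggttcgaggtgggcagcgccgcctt

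Of 20 genes of folding and the unfolded protein response in the endoplasmic reticulum (ER), where secreted proteins mature, 2 were higher at ZT0, none was lower and 17 had positive values, with a median log2 fold change of 0.16. With the replicate block 1, Manf, was called. Between ZT18 and ZT21 1 of the 20, Hsp90b1, fell and none rose. From ZT21 to ZT0, across lanes, 8 rose (Calr, Canx, Hsp90b1, Hspa5, Manf, Pdia3, Pdia4 and Pdia6) and none fell, so the turn was not particular to the heat-shock list. The shares of all genes called in the 3 comparisons are those given above. Manf, a secreted ER stress protein, measured 19.1, 17.6, 16.1 and 18.1 CPM at ZT18, 16.2, 16, 17.4 and 16.6 at ZT21 and 28.1, 30.6, 31.5 and 25.1 at ZT0, with all ZT0 mice above the others. It was 1.63-fold higher than at ZT18 (log2 0.70 ± 0.10, SE; edgeR adjusted p = 0.00026), a call held in all 8 fits, and the means of the other 7 time points lay between 16.6 and 18.6 CPM. Pdia3, a disulfide isomerase, went from 135 ± 9.31 to 157 ± 10.6 CPM (SD, n = 4; adjusted p = 0.049). Its call was lost at adjusted p = 0.0814 to 0.176 in 6 of the 8 fits that left out 1 library, held only without ZT0 replicate 4 and ZT18 replicate 4, and with the replicate block it stood at adjusted p = 0.0596. Hspa5 (BiP), the central ER chaperone, had an adjusted p of 0.198, and Ddit3 and Atf4, transcription factors of the stress response, 0.771 for Ddit3 and 0.865 for Atf4.

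**Figure D3:**
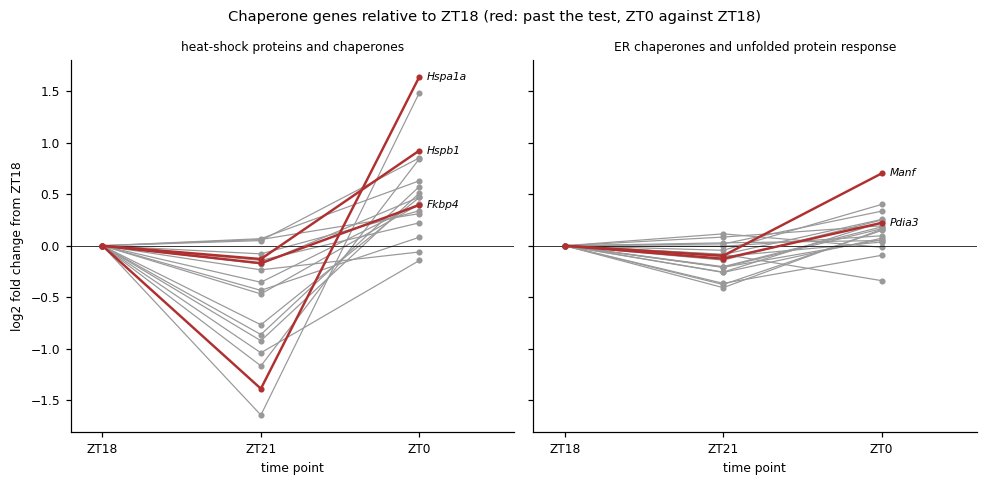
Log2 fold change from ZT18 (y axis) at ZT18, ZT21 and ZT0 (x axis) for 19 heat-shock genes (left) and 20 ER chaperone genes (right), with 1 line per gene and red for genes called between ZT0 and ZT18. Most heat-shock lines dip at ZT21 before they rise to ZT0. The ER lines stay nearer to 0, with a median of -0.115 at ZT21 and 0.162 at ZT0, and Manf stands apart at ZT0.

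Genes that respond to glucocorticoids, the adrenal hormones that in mice peak at the start of the night, were split. Of 11 tested, 2 were higher at ZT0 and 1 lower, beside 2.26% called over all genes tested. Tsc22d3 (GILZ), a direct glucocorticoid receptor target, measured 70, 62.3, 64.9 and 69.9 CPM at ZT18 and 32.9, 38.8, 50.2 and 34.9 at ZT0, 1.7-fold lower (edgeR adjusted p = 0.0148), a call lost at adjusted p = 0.0725 without ZT0 replicate 1. Cdkn1a (p21), an inhibitor of the cell cycle, went the other way, from 34.3, 28.1, 36.4 and 48.1 CPM to 98.8, 79.8, 117 and 65.1, 2.45-fold higher (log2 1.29 ± 0.23, SE; adjusted p = 0.00243). It had already risen by ZT21, to 86.4, 105, 101 and 124 CPM (adjusted p = 0.00164), and its call between ZT0 and ZT18 held in all 8 fits. Mt2, a metallothionein that binds zinc, measured 2.09, 1.82, 1.8 and 5.73 CPM at ZT18 and 13.3, 14.5, 12 and 3.28 at ZT0. The mice of replicate 4 overlapped, and the call (3.74-fold, adjusted p = 0.0276) was lost at adjusted p = 0.0575 to 0.106 in 6 of the 8 fits that left out 1 library, held only without ZT0 replicate 4 and ZT18 replicate 4. Its log2 fold change went from 1.90 to 2.49 without ZT18 replicate 4. Fkbp5, Zbtb16 and Klf9, other receptor targets, were not called (adjusted p = 0.427 for Fkbp5, 0.756 for Zbtb16 and 0.756 for Klf9), although Zbtb16 stood at 67.4 ± 24.8 CPM at ZT21 against 13.8 ± 4.98 at ZT18 and 18.3 ± 5.09 at ZT0.

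Of 10 thermogenic genes 1 was higher at ZT0, beside 2.26% called over all genes tested. Adrb3, the beta-3 adrenergic receptor, measured 159.9, 146, 224 and 273 CPM at ZT18, 112, 112, 234 and 243 at ZT21 and 461, 493, 273 and 413 at ZT0, with the mice of ZT18 replicate 4 and ZT0 replicate 3 just overlapping. It was 2.04-fold higher (log2 1.03 ± 0.28, SE; edgeR adjusted p = 0.0495), and its ZT0 mean was the highest of the 8 time points, the next being 229 CPM at ZT3. The call was lost at adjusted p = 0.0624 to 0.156 in 6 of the 8 fits that left out 1 library, held only without ZT0 replicate 3 and ZT18 replicate 4, and with the replicate block it stood at adjusted p = 0.0616. Ucp1, the uncoupling protein, measured 955, 1286, 1733 and 1126 CPM at ZT18 and 2929, 2346, 3116 and 2027 at ZT0, without overlap and 2.04-fold apart, but was not called (adjusted p = 0.0525). Dio2, the enzyme that activates thyroid hormone, measured 7.49, 30.7, 108 and 96.9 CPM in the ZT18 mice against 26 ± 4.05 (SD, n = 4) at ZT0 (adjusted p = 0.399).

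**Figure D4:**
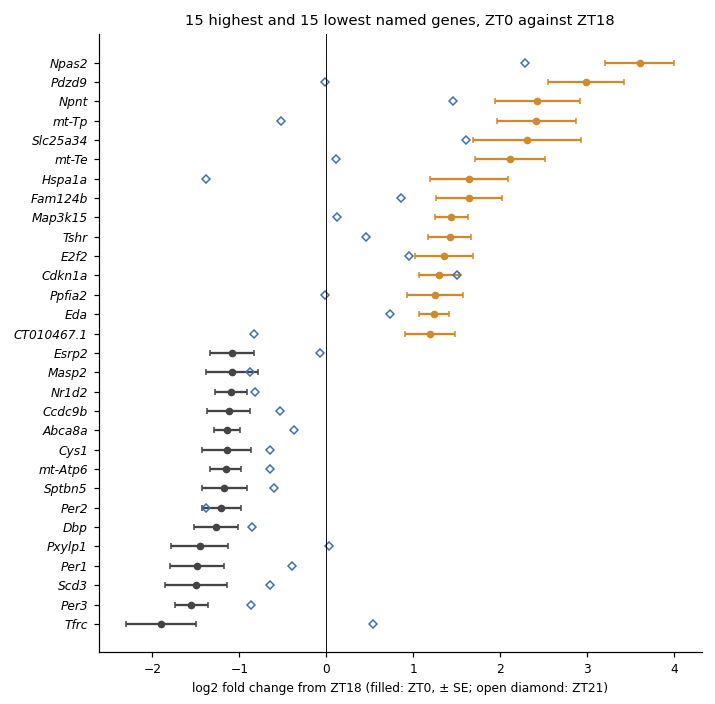
Log2 fold change from ZT18 (x axis) at ZT0 (filled points ± SE) and at ZT21 (open diamonds) for the 15 highest and 15 lowest named genes (y axis). Npas2 and Pdzd9 lead the genes higher at ZT0 and Tfrc the lower ones, and Pdzd9, Tfrc and Hspa1a stand at ZT21 near or on the other side of their ZT18 level.

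Outside these lists, Pdzd9, a PDZ domain protein, was next to Npas2 in fold among the called genes so ranked. It measured 0.331, 0.497, 0.451 and 0.382 CPM at ZT18, 0.17, 0.23, 0.557 and 0.69 at ZT21 and 5.46, 3.85, 1.97 and 2.11 at ZT0 (7.93-fold; log2 2.99 ± 0.44, SE; edgeR adjusted p = 0.000269). The ZT18 and ZT21 mice overlapped (adjusted p = 0.996), and every ZT0 mouse lay above both. Map3k15, a kinase of the MAP kinase cascade, measured 4.24, 3.97, 2.76 and 3.98 CPM at ZT18, 4.08 ± 0.344 at ZT21 and 16.1, 10.4, 8.1 and 6.06 at ZT0 (2.71-fold; adjusted p = 9.98e-05). For both the next highest mean of the 8 time points was at ZT3, at 1.27 CPM for Pdzd9 and 5.51 for Map3k15. Tshr, the receptor of thyroid stimulating hormone, rose from 8.1, 12.5, 7.83 and 6.28 to 17.2, 23.4, 29.7 and 22.5 CPM (2.67-fold; adjusted p = 0.00199). Eda (ectodysplasin), a signalling ligand of the TNF family, rose from 6.38 ± 0.973 to 15.1 ± 1.48 CPM (SD, n = 4; 2.36-fold; adjusted p = 0.000179) with 10.7 ± 3.47 at ZT21 (adjusted p = 0.0223 against ZT18). The calls of these 4 genes held in all 8 fits.

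Npnt (nephronectin), an integrin ligand of the matrix, measured 0.551, 0.0552, 0.733 and 1.86 CPM at ZT18 and 5.71, 4.5, 5.24 and 1.89 at ZT0 (5.37-fold; edgeR adjusted p = 0.00809), and the highest ZT18 mouse lay just under the lowest ZT0 mouse. Its call held in all 8 fits, with the log2 fold change going from 2.43 to 3.27 without ZT18 replicate 4. Slc25a34, a mitochondrial carrier, measured 1.1, 1.77, 1.92 and 4.09 CPM at ZT18, 6.8 ± 1.39 at ZT21 and 16.1, 9.48, 11.3 and 7.34 at ZT0 (4.95-fold; adjusted p = 0.0466), a call lost at adjusted p = 0.0634 to 0.142 in 6 of the 8 fits that left out 1 library, held only without ZT0 replicate 4 and ZT18 replicate 4. E2f2, a transcription factor of the cell cycle, rose from 12.4 ± 5.16 to 31.6 ± 4.45 CPM (SD, n = 4; adjusted p = 0.0256), lost at adjusted p = 0.0652 to 0.0975 in 4 of the 8 fits that left out 1 library, held only without ZT0 replicate 2, ZT0 replicate 4, ZT18 replicate 1 and ZT18 replicate 2. Fam124b, Ppfia2 and CT010467.1 were all under 6 CPM in each mouse, with folds of 3.12 for Fam124b, 2.38 for Ppfia2 and 2.28 for CT010467.1. Their calls were lost at adjusted p = 0.057 without ZT0 replicate 4, 0.082 without ZT18 replicate 2 and 0.0736 without ZT18 replicate 3 for Fam124b, at adjusted p = 0.0521 to 0.211 in 4 of the 8 fits that left out 1 library, held only without ZT0 replicate 3, ZT0 replicate 4, ZT18 replicate 3 and ZT18 replicate 4 for Ppfia2 and at adjusted p = 0.0704 to 0.14 in 4 of the 8 fits that left out 1 library, held only without ZT0 replicate 2, ZT0 replicate 3, ZT0 replicate 4 and ZT18 replicate 2 for CT010467.1.

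Tfrc (chr16:32608920-32632794), the transferrin receptor that brings iron into cells, had the largest fall in fold among the called genes chosen by fold (at least 1 CPM on average, no overlap between mice, and a symbol that is not a gene model). It measured 83.9, 235, 301 and 114 CPM at ZT18, 340.3, 232, 275 and 218 at ZT21 and 33.7, 62.4, 39.7 and 60.9 at ZT0. The ZT18 mice spread widely, yet the lowest of them stood above every ZT0 mouse. The fold was 3.73 (log2 -1.90 ± 0.40, SE; edgeR adjusted p = 0.0112), lost at adjusted p = 0.0518 without ZT0 replicate 1 and 0.0596 without ZT18 replicate 3. Between ZT21 and ZT0 the log2 fold change was -2.44 (adjusted p = 0.000509), and the ZT0 mean was the lowest of the 8 time points, the next being 118 CPM at ZT12. Abca8a, an ABC transporter, fell 2.2-fold from 102, 109, 93 and 113 to 48.7, 43.8, 40.6 and 56.2 CPM (adjusted p = 6.65e-05), held in all 8 fits.

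The other genes of large fall were low in level. Scd3, a desaturase of fatty acids, fell 2.82-fold from 10.4 ± 1.82 to 3.69 ± 1.31 CPM (SD, n = 4; edgeR adjusted p = 0.0219), lost at adjusted p = 0.0614 to 0.0823 in 4 of the 8 fits that left out 1 library, held only without ZT0 replicate 3, ZT0 replicate 4, ZT18 replicate 1 and ZT18 replicate 4. Pxylp1, a xylose phosphatase of glycosaminoglycan synthesis, fell 2.74-fold from 1.71 ± 0.456 to 0.617 ± 0.204 CPM, lost at adjusted p = 0.0734 without ZT0 replicate 1, 0.0547 without ZT0 replicate 2 and 0.0568 without ZT18 replicate 1. Sptbn5, a spectrin, fell 2.25-fold and lost its call at adjusted p = 0.0588 without ZT18 replicate 2. Esrp2, a splicing regulator of epithelial cells, fell 2.12-fold, Ccdc9b 2.18-fold and Cys1 2.21-fold. Their calls were lost at adjusted p = 0.0527 to 0.0736 in 5 of the 8 fits that left out 1 library, held only without ZT0 replicate 1, ZT0 replicate 4 and ZT18 replicate 1 for Esrp2, at adjusted p = 0.0739 without ZT0 replicate 1, 0.0518 without ZT18 replicate 1 and 0.0544 without ZT18 replicate 2 for Ccdc9b and at adjusted p = 0.053 to 0.106 in 6 of the 8 fits that left out 1 library, held only without ZT0 replicate 2 and ZT0 replicate 3 for Cys1. Masp2, a protease of the complement system, was called at adjusted p = 0.0495 and lost at adjusted p = 0.0574 to 0.152 in 8 of the 8 fits that left out 1 library, and stood at adjusted p = 0.0613 with the replicate block.

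Called genes whose mice did not overlap and whose symbol is not a gene model were also ranked by the difference in CPM. Among these, the 3 largest falls were in Neat1, Ces1d and Nampt. Neat1, a long noncoding RNA that builds nuclear paraspeckles, measured 1346, 1601, 1936 and 1572 CPM at ZT18 and 685, 1048, 727 and 991 at ZT0 (1.87-fold; edgeR adjusted p = 0.049). The call was lost at adjusted p = 0.053 to 0.169 in 7 of the 8 fits that left out 1 library, held only without ZT0 replicate 4, and stood at adjusted p = 0.0633 with the replicate block. Ces1d, a carboxylesterase that hydrolyses triglyceride and the 1 of 6 lipolysis genes called, went from 1372, 1451, 1416 and 1431 to 1211, 1038, 1069 and 1029 CPM (1.3-fold; adjusted p = 0.00645), with tight groups and a call held in all 8 fits. Nampt, the enzyme that limits NAD synthesis from nicotinamide and a known clock target, went from 725, 642, 610 and 619 to 538, 442, 465 and 371 CPM (1.43-fold; adjusted p = 0.0237), lost at adjusted p = 0.0614 to 0.0735 in 4 of the 8 fits that left out 1 library, held only without ZT0 replicate 1, ZT0 replicate 3, ZT18 replicate 3 and ZT18 replicate 4.

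Next in CPM among the genes so ranked, beside Tfrc, were the falls of Sptbn1, Tob2, Dlc1 and Itpr1. Itpr1, the IP3 receptor that releases calcium from the ER, went from 261 ± 14.1 to 183 ± 18.4 CPM (SD, n = 4; 1.43-fold; edgeR adjusted p = 0.00809) and held in all 8 fits. Sptbn1, a spectrin of the membrane skeleton, went from 1012 ± 30.1 to 836 ± 56.2 CPM, lost at adjusted p = 0.0516 to 0.0606 in 4 of the 8 fits that left out 1 library, held only without ZT0 replicate 3, ZT0 replicate 4, ZT18 replicate 1 and ZT18 replicate 4. Tob2, an inhibitor of proliferation, fell 2-fold, lost at adjusted p = 0.0576 to 0.106 in 4 of the 8 fits that left out 1 library, held only without ZT0 replicate 3, ZT0 replicate 4, ZT18 replicate 1 and ZT18 replicate 4. Dlc1, a GTPase activating protein, measured 169, 226, 293 and 346 CPM at ZT18 and 164, 155, 162 and 168 at ZT0, lost at adjusted p = 0.0575 to 0.179 in 7 of the 8 fits that left out 1 library, held only without ZT18 replicate 1, and stood at adjusted p = 0.0529 with the replicate block.

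Among called genes whose mice did not overlap and whose symbol is not a gene model, the largest gains in CPM beside those of the mitochondrial genes were in Sh3pxd2a, Agpat3, Ntrk2 and Itpk1. Sh3pxd2a, a scaffold of invasive adhesions, rose from 443 ± 78.7 to 772 ± 105 CPM (SD, n = 4; edgeR adjusted p = 0.0426), lost at adjusted p = 0.0704 to 0.133 in 5 of the 8 fits that left out 1 library, held only without ZT0 replicate 2, ZT0 replicate 4 and ZT18 replicate 4. Agpat3, an acyltransferase of phospholipid synthesis, rose from 414, 419, 409.9 and 399.7 to 559, 487, 567 and 519 CPM (adjusted p = 0.0435), lost at adjusted p = 0.0741 to 0.13 in 6 of the 8 fits that left out 1 library, held only without ZT0 replicate 2 and ZT0 replicate 4, with adjusted p = 0.0595 under the replicate block. Ntrk2, the receptor of brain-derived neurotrophic factor, measured 323, 204, 322 and 189.5 CPM at ZT0 against 172 ± 13.4 at ZT18 (adjusted p = 0.0427), lost at adjusted p = 0.0627 to 0.185 in 6 of the 8 fits that left out 1 library, held only without ZT0 replicate 2 and ZT0 replicate 4, with adjusted p = 0.0523 under the replicate block. Itpk1, an inositol phosphate kinase, rose 1.66-fold (adjusted p = 0.0115), had reached 174 CPM at ZT21 (adjusted p = 0.022 against ZT18), and lost its call at adjusted p = 0.0633 without ZT0 replicate 1 and 0.0541 without ZT18 replicate 2.

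In the pathways of fuel handling, no gene was called between the middle and the end of the night among 17 of de novo lipogenesis, 14 of triglyceride synthesis and lipid droplets, 11 of the lipoprotein lipase pathway, 16 of fatty acid oxidation, 19 of glucose uptake and glycolysis, 20 of cholesterol synthesis and 14 of insulin signalling. Their median log2 fold changes lay between -0.05 (insulin signalling) and 0.16 (glycolysis). Over all genes tested 2.26% were called, so lists of this size can hold no call without standing apart. Nearest to the threshold were Fdft1, squalene synthase (log2 -0.59, edgeR adjusted p = 0.0827), and Plin4, a lipid droplet coat protein (-0.50, 0.0851). A lack of calls at 4 mice a group does not show equal levels. Fasn, fatty acid synthase, measured 29660, 29550, 22030 and 19900 CPM at ZT18 and 25720, 19980, 36260 and 17030 at ZT0, and Irs2, an insulin receptor substrate, 8.65, 16, 108 and 108 against 8.28, 13.3, 9.36 and 30.5 (log2 -1.96 ± 0.69, SE; adjusted p = 0.141).

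In the lipoprotein lipase pathway, through which brown fat takes fatty acids from circulating triglyceride, Lpl itself measured 2755, 3379, 3396 and 3831 CPM at ZT18 and 3565, 2986, 3240 and 2501 at ZT0 (log2 -0.12 ± 0.12, SE; edgeR adjusted p = 0.7). Its inhibitor Angptl4 measured 118, 165, 286 and 422 CPM at ZT18 and 158, 269.8, 112 and 490.5 at ZT0, with mice of both groups spread over the same range (adjusted p = 0.972). Gpihbp1, the endothelial anchor of the lipase, and Cd36, a fatty acid transporter, gave adjusted p = 0.693 for Gpihbp1 and 0.168 for Cd36. The Cd36 mice did not overlap, at 1660, 1834, 1817 and 1833 CPM against 2031, 1916, 1997 and 2155.

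Other lists held few or no called genes, beside 2.26% called over all genes tested, so the counts do not set these lists apart. Of 39 splicing factors 2 were higher, Hnrnpa3 (1.26-fold, edgeR adjusted p = 0.0237, and 0.0884 without ZT0 replicate 1, 0.0929 without ZT0 replicate 2 and 0.0852 without ZT18 replicate 3) and Hnrnpk (1.16-fold, adjusted p = 0.0437), the latter lost at adjusted p = 0.0661 to 0.169 in 6 of the 8 fits that left out 1 library, held only without ZT0 replicate 4 and ZT18 replicate 3. Of 22 autophagy genes 1 was higher, Atg12, a ubiquitin-like protein of autophagosome formation (1.22-fold, adjusted p = 0.0355), lost at adjusted p = 0.0521 to 0.182 in 6 of the 8 fits that left out 1 library, held only without ZT0 replicate 4 and ZT18 replicate 4. None was called of 25 ribosome biogenesis genes, 32 proteasome subunits, 17 collagens and matrix genes, 14 brown adipocyte transcription factors and 2 cold-inducible RNA-binding proteins. None was called of 20 immediate early genes, the first genes that a stimulus switches on, although 17 had negative values (median log2 -0.49). They varied widely within a group, as in Nr4a1, an orphan nuclear receptor, with 4.24, 22.7, 139 and 128 CPM at ZT18 and 3.27, 27.1, 5.24 and 55.3 at ZT0.

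**Figure D5:**
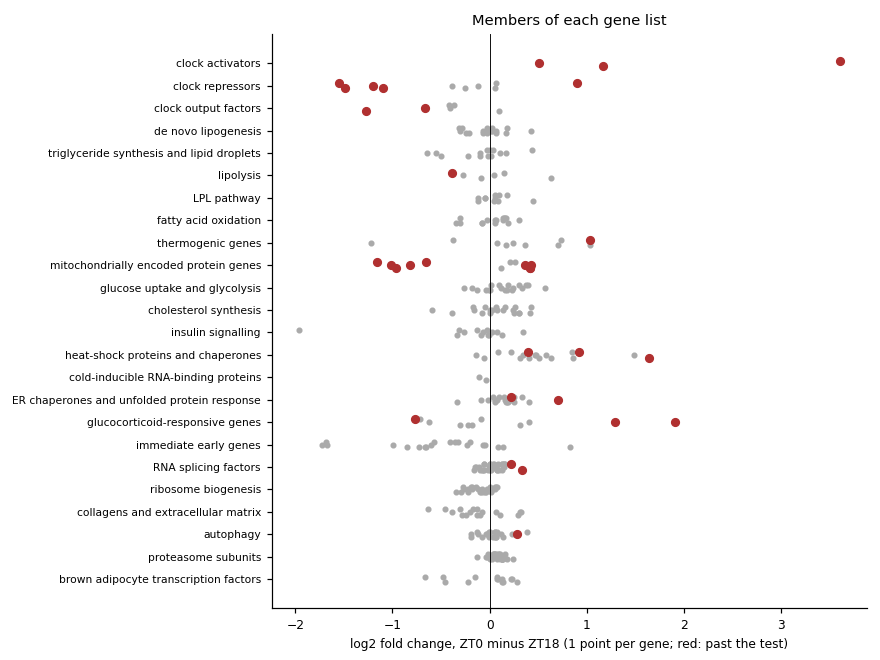
Log2 fold change, ZT0 minus ZT18 (x axis), of each tested member of the 24 gene lists (y axis), with 1 point per gene and called genes in red. The mitochondrially encoded list holds 9 called genes, the 3 clock lists hold 10 together, the heat-shock and glucocorticoid lists hold 3 each, and the lipid and glucose lists hold none except Ces1d among the lipolysis genes.

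Markers of the tissue and of other cells it can hold were summed per mouse. All 8 brown adipocyte markers were detected, and their summed level was 14410 ± 977 CPM at ZT0 and 12290 ± 776 at ZT18 (SD, n = 4; two-sided exact permutation test p = 0.0571, adjusted over the 9 marker lists 0.257). The members did not move alike, and only Adrb3 was called. From ZT18 to ZT0 mean Ucp1 went from 1275 to 2604 CPM, Cidea from 1876 to 1874 and Adipoq from 799 to 783. The 8 stromal markers, of fibroblasts and progenitors, summed to 648 to 1005 CPM at ZT0 and 1007 to 1333 at ZT18, a difference of -279.9 CPM on average (exact permutation test p = 0.0286, adjusted 0.257), and all 8 were negative with none called. Most of the difference in the sum came from 1 abundant member, Gsn, with means of 840 CPM at ZT18 and 620 at ZT0. The 9 macrophage markers were all negative too, with sums of 69.1 to 107 CPM at ZT0 and 85.4 to 126 at ZT18 (exact p = 0.143). Muscle, red blood cell, lymphoid, endothelial, white fat and Schwann cell sums gave exact p = 0.0857 to 0.743, and no gene of these lists was called. The white fat markers Hoxc9 and Hoxc10 had no count in any of the 8 mice. By counting error alone this allows up to 3 counts over the 8 libraries together, or 0.0215 CPM. Wdnm1 was not matched by symbol. What part these cell types had in any of the called differences was not tested.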

How the data were processed

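RNA of iBAT from 32 mice was sequenced as stranded 100 bp paired ends. The authors deposited raw read counts per gene, made by alignment to mm10 with GSNAP and counting with HTSeq 0.6.1; strand use in counting was not given in the sources used here. Columns were matched to samples by name. Of 50686 genes, 15505 passed filterByExpr. Counts of all 32 libraries entered one model with a mean per time point (edgeR 4.0.16, R 4.3.3, TMM, quasi-likelihood, Benjamini-Hochberg 0.05). The labels do not give litters or cages, so p-values measure the spread between mice.

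Named genes were the 15 highest and 15 lowest log2 fold changes among called genes with at least 1 CPM on average and no overlap, the 8 largest CPM differences in each direction, and list members. The value of 1 clock list member is not reported here. Members and lists were chosen with earlier results of these data known. Genes past the threshold in the named set numbered 67, of which 25 were past in all 8 fits without 1 library. Same-numbered ZT0 and ZT18 mice deviated together (correlations 0.644, 0.361, 0.402 and 0.517), which was taken as pairing for the replicate block. Numbers 1 and 2 (0.348 and 0.621), and 3 and 4 (0.474 and 0.546), correlated across numbers as well, so the values do not single out same-numbered mice. Muscle marker sums were lower in ZT0 and ZT18 mice 1 and 2 than in 3 and 4. The part of muscle transcripts in these correlations was not tested. The main model and the exact permutation tests took the mice as unpaired. Alternatives were the replicate block, DESeq2 1.42.0, other scalings and filters, fewer libraries and a test against a 1.5-fold change. RefSeq promoter windows matched 10910 of 15505 genes, under 80%, so motif shares were not compared between gene sets. The comparison of 100-base stretches used GENCODE M21 transcripts.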

Additional observations from a re-analysis of the deposited data

Results flagged for a closer look

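In 8 of the 154 groups of 4 mice examined, 1 mouse stood apart from the other 3 by Dixon's criterion. Chance flags about 1 in 20 groups, the groups are not independent of each other, and 5 of the 8 were the same mouse. In ZT0 replicate 1 this held for mt-Cytb, at 65840 CPM beside 52980 to 55010 in the others, for mt-Co2, at 71.5 beside 45.5 to 47.8, and for Esrp2, at 4.94 beside 2.62 to 2.90. The same mouse stood apart for the nuclear copies Gm10925, at 100.8 CPM beside 60.3 to 64.3, and Gm28661, at 85.5 beside 50.2 to 52.9. In ZT0 replicate 4 it held for Sptbn1, at 919.8 CPM beside 805 to 811. In ZT18 replicate 4 it held for Mt2, at 5.73 CPM beside 1.80 to 2.09, and for Atg12, at 44.1 beside 41.1 to 41.5.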

How the results depend on the processing

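The count of 351 genes between ZT0 and ZT18 (186 higher, 165 lower) was 194 (107 and 87) with no filter, 61 (29 and 32) with only these time points fitted, 8 (7 and 1) against a 1.5-fold change, and 41 (20 and 21) with only these time points and a replicate block, the last added after the data were seen. DESeq2 called 517, of which 283 were higher, and library size scaling called 81 higher and 259 lower. Leaving out 1 library gave 144 to 446 genes, 65 to 252 of them higher and 65 to 194 lower. The count of 320 genes between ZT21 and ZT18 was 539 with DESeq2, 187 with library size, 190 with no filter, 649 with only these time points, 0 against 1.5-fold in edgeR (217 at unadjusted p under 0.05) and 101 to 211 without 1 library. The count of 1197 genes between ZT0 and ZT21 was 763 with no filter, 489 with only these time points, 28 against 1.5-fold and 581 to 1650 without 1 library. With the replicate block the counts were 316, 292 and 1138. The block took the named genes Adrb3, Agpat3, Dlc1, Hspa1a, Hspb1, Masp2, mt-Nd3, Neat1, Ntrk2 and Pdia3 above an adjusted p of 0.05 and changed no other named call. None of the 351 genes changed sign under these alternatives, which reuse the same libraries and so are no independent check of direction. The split of calls turned from more higher to more lower with library size, with only these time points (with or without the block) and without ZT0 replicate 1, ZT18 replicate 1 or ZT18 replicate 4. The cause of these moves was not tested, except that a fit with fewer libraries has fewer degrees of freedom.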
